A study of Mus musculus with 36 samples.

Results

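Hippocampus and cerebellum of mice without *Pogz* in the nervous system were compared within animals, to describe how far the genes that mark each brain region are kept apart when the gene is missing. The libraries are the poly(A) RNA-seq libraries of *Pogz* cKO-/- animals Sample_936, Sample_1219, Sample_1371, Sample_1379 and Sample_1385, each of which gave a hippocampus and a cerebellum, so 10 of the 36 libraries of the series enter the comparison. The 2 libraries of cKO-/- animal Sample_1160 served only as a check, since its hippocampal library stood apart and its departures followed gene length. Their Spearman correlation with length, taken against the other libraries of its group, was -0.66. Kept libraries also had such correlations, of -0.534 in the cerebellum of cKO-/- animal Sample_1379 and -0.526 in that of control animal Sample_1190. The part of gene length in the spread between animals was not tested. Of 24421 genes listed in both tables, the 14320 above 1 CPM (counts on the gene scaled to a fixed library total) in at least 5 of the 10 libraries were tested.

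The mice were adult C57Bl/6 animals of genotype NesCre/+; Pogzfl/fl, 3 males and 2 females. *Cre* under the *Nestin* promoter is active in neural progenitors, so neurons, astrocytes and oligodendrocytes descend from cells that carried *Cre*, while microglia, endothelium and meninges largely do not. *Cre* removes exons 13 to 19 of both floxed *Pogz* alleles. The 6 control mice, also adult C57Bl/6 animals, carried the floxed alleles without *Cre* (Pogzfl/fl) and gave 12 libraries. *Cre* and the deletion come together in every cKO-/- mouse, so that *Cre* itself cannot be told apart from the loss of *Pogz* where the genotypes are compared. Counts on genes ranged from 17609321 to 36449872 in the 5 cKO-/- hippocampi and from 21421850 to 30812192 in the 5 cerebella.

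POGZ is a zinc finger protein that binds heterochromatin protein 1 and is found in complexes that keep genes silent. The hippocampus is a forebrain structure of pyramidal neurons in the CA fields and granule cells in the dentate gyrus, which carry transcription factors of the telencephalon such as *Emx1* and *Lhx2*. The cerebellum develops at the border of midbrain and hindbrain and holds a vast number of small granule cells beside the large Purkinje cells, with *En2*, *Zic* and *Lhx1* among its regional factors.

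Values below are CPM in the order of animals Sample_936, Sample_1219, Sample_1371, Sample_1379 and Sample_1385, and log2 differences are hippocampus minus cerebellum, with the standard error, over these 5 animals (n = 5). Adjusted p-values are from edgeR's quasi-likelihood test with Benjamini-Hochberg adjustment over all genes tested. Because most genes differ somewhat between these 2 regions, a stricter 2-fold rule was used for most counts, which asks with the same edgeR fit whether a gene differs by more than 2-fold. In bulk tissue, fewer cells of a type and less RNA per cell cannot be told apart. The replicates are separate animals.

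Promoters of 5 of the genes named below are shown first, as the 250 bases before the gene's start in RefSeq (GRCm38.p6), on the gene's strand, 5′ to 3′, with CpG dinucleotides in capitals. *Fezf2* and *Neurod6* encode forebrain transcription factors high in hippocampus, *Gabra6* and *Cbln3* encode a receptor subunit and a secreted synaptic protein of cerebellar granule cells, and *Gm364* is a gene that is near silent in control brain.
Fezf2, chr14:12345866-12346115, minus strand: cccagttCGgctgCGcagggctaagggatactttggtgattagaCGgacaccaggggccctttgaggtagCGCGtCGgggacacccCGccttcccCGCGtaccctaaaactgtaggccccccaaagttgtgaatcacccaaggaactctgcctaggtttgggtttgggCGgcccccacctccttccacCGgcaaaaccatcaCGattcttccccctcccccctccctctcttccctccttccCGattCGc
Neurod6, chr6:55681264-55681513, minus strand: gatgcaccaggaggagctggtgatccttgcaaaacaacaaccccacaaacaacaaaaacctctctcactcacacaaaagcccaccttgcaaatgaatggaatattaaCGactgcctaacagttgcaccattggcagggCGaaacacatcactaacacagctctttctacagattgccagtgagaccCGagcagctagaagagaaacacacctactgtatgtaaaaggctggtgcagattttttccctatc
Gabra6, chr11:42321073-42321322, minus strand: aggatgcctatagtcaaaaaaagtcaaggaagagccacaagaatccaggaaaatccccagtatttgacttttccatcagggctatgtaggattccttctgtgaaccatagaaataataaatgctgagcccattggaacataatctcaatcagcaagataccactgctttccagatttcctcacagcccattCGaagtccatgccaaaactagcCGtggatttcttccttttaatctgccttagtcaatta
Cbln3, chr14:55884257-55884506, minus strand: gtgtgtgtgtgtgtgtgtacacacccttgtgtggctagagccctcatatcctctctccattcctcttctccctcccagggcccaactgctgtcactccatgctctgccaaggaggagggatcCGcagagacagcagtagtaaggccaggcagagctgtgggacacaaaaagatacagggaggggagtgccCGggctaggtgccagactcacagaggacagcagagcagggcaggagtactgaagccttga
Gm364, chrX:57408899-57409148, plus strand: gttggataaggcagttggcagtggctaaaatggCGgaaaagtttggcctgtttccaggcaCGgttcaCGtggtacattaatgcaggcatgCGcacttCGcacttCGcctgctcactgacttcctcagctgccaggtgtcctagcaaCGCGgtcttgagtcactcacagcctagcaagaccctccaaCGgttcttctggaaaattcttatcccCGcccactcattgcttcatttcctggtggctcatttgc
The *Fezf2* window holds 14 CpG dinucleotides and the *Gm364* window 10, against 3 in *Neurod6* and 2 each in *Gabra6* and *Cbln3*. Neither TATAAA nor CAGATG, a form of the site of NeuroD-type factors, occurs on either strand of these 5 windows. RefSeq windows from 250 bases before to 50 bases after the start were found for 875 of the 1215 genes higher in hippocampus by the 2-fold rule, 651 of the 908 higher in cerebellum and 10819 of all 14320. The median ratio of observed to expected CpG was 0.638 in the hippocampal genes and 0.614 in the cerebellar genes, against 0.755 over all genes tested. A ratio under 0.6 was found in 45.9% of the hippocampal, 48.4% of the cerebellar and 29.3% of all windows. TATAAA was present in 8.69%, 7.53% and 6.92% of these windows, and CAGATG in 13.3%, 16.6% and 11.7%. These are descriptions of sequence with no test.

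In cKO-/- mice 4382 genes (30.6% of those tested) were higher in hippocampus and 4629 (32.3%) were higher in cerebellum at an FDR of 0.05, so that 62.9% of all genes differed between the regions. By the 2-fold rule 1215 genes (8.48%) were higher in hippocampus and 908 (6.34%) in cerebellum. The median log2 difference of all genes was -0.03, and the median spread of a gene's difference between the 5 animals was 0.22 (SD, log2). For 3491 genes all 5 hippocampi lay above all 5 cerebella, and for 3434 all 5 lay below. In 44 genes of the hippocampal set no cerebellar library held more than 3 counts, and in 10 of them all 5 cerebella were at 0. The converse held for 29 genes of the cerebellar set, of which 7 were at 0 in all 5 hippocampi.

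Some libraries also held transcripts that mark neighbouring tissue, and this bears on several results below. The summed level of 12 midbrain and brainstem genes was 99.8 CPM in the cerebellum of animal Sample_936 and 134 in that of animal Sample_1385, against 27.8, 40.6 and 40.4 in animals Sample_1219, Sample_1371 and Sample_1379, and 18.7 to 26.1 in control cerebella. *Slc17a6*, given by animal below, made up most of the sums of animals Sample_936 and Sample_1385. Its mean per kilobase was 11.0 ± 10.2 (SD) CPM in cKO-/- cerebella and 0.654 ± 0.825 in control cerebella. All 5 cKO-/- sums lay above the controls, while the cerebellum of animal Sample_1160 was at 13.9. Whether neighbouring tissue or genotype lies behind these sums was not tested. In the cerebellum of animal Sample_936 *Hoxa5* and *Hoxb5*, which mark the caudal brainstem and spinal cord, were at 3.61 and 4.02 CPM. Choroid plexus genes summed to 5170 CPM in the hippocampus of animal Sample_1385 and 3040 in the cerebellum of animal Sample_936, against 21.8 to 75.3 in 7 of the other cKO-/- libraries, while the hippocampus of animal Sample_1219 lay between. Control hippocampi held them too, at 5020 CPM in animal Sample_1129 and 2500 in animal Sample_1170, against 33.0 to 45.1 in the rest. The hippocampus of control animal Sample_1129 held cerebellar transcripts, with a granule cell sum of 873 CPM against at most 573 in the other controls. Of the markers of the opposite region, *Fezf2* in cerebellum and *Gabra6* and *Skor2* in hippocampus were at or near 0 in every cKO-/- library, while others, among them *Fibcd1* and *Gabra5* in cerebellum and *Zic1* and *Cbln1* in hippocampus, were above 1 CPM in some or all of them. Without animals Sample_936 and Sample_1385, chosen after seeing the data, 2229 genes passed the 2-fold rule, 2018 of which are among the 2123 found with all 5 animals.

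**Figure D1:**
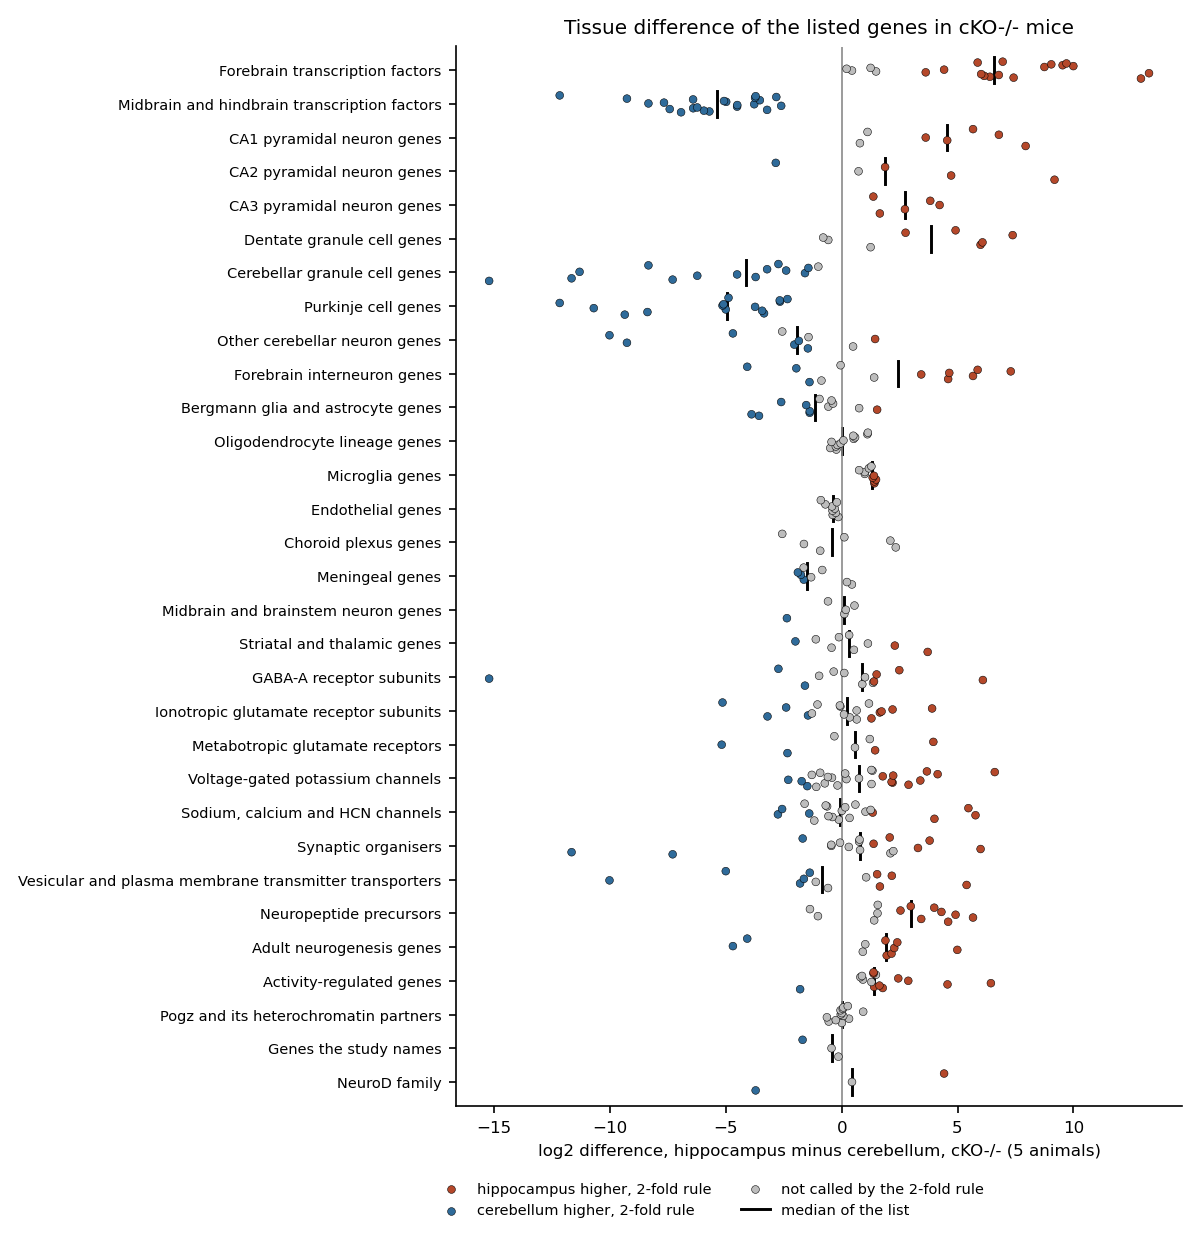
Log2 difference, hippocampus minus cerebellum, of each tested gene of 31 gene lists in cKO-/- mice (horizontal axis), 1 point a gene, coloured by the 2-fold rule, with a bar at the list's median. Forebrain transcription factors lie to the right with a median of 6.59, Purkinje cell and cerebellar granule cell genes to the left with medians of -4.95 and -4.12, and oligodendrocyte and heterochromatin genes near 0.

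Transcription factors of the forebrain were higher in hippocampus, where 8.48% of all genes were higher by the 2-fold rule. Of 20 such factors, 20 were tested, 16 were higher by the 2-fold rule and none was lower, with a median of 6.59, or 5.48 with genes at 0 in cerebellum set to their lower bound, against -0.03 over all genes. *Fezf2*, a factor of subcerebral projection neurons, was at 48.3, 49.0, 40.2, 47.8 and 36.7 CPM in hippocampus and at 0 in all 5 cerebella, which makes it at least 328-fold higher against a floor of 3 counts per library. *Emx1*, a dorsal telencephalic homeobox gene, was at 13.0, 11.4, 8.45, 12.4 and 11.0 CPM against 0, 0.131, 0, 0.163 and 0, and *Tbr1*, a factor of glutamatergic projection neurons, at 61.7, 52.3, 45.8, 55.1 and 41.9 against 0.663, 0.296, 0.406, 0.490 and 0.460. Both were apart in every animal, with log2 differences of 7.42 ± 0.50 and 6.78 ± 0.14 (edgeR adjusted p for the 2-fold rule 2.18e-05 and 7.37e-08).

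*Lhx2*, which selects cortical and hippocampal fate, varied more. It was at 72.6, 73.2, 68.7, 71.1 and 62.4 CPM in hippocampus and 2.17, 0.0329, 0.0451, 0.523 and 2.82 in cerebellum, where animals Sample_936 and Sample_1385 stood above the other 3. The part of the brainstem transcripts in this value was not tested. The *Dlx* genes encode factors of forebrain interneurons, with 12.01, 9.65, 11.1, 13.4 and 9.78 CPM of *Dlx1* in hippocampus and at most 0.0451 in cerebellum, and *Dlx2*, *Dlx5* and *Dlx6* were at 0 in all cerebella. Their noncoding neighbours *Dlx1as* and *Dlx6os1* were among the largest differences of the whole table, with ratios of 2143 (385 to 84662, on 1 cerebellar count) and 1214 (336 to 10023, on 2 counts). *Dlx1as* overlaps *Dlx1*, and whether strand was used in counting is not given in the sources used here. The 4 factors that did not pass the 2-fold rule were *Neurod2*, *Prox1*, *Zbtb20* and *Nr2f2*. *Nr2f2*, an orphan nuclear receptor of both regions, did not differ, at 20.1, 26.9, 34.7, 28.1 and 19.3 CPM in hippocampus and 28.7, 16.5, 22.9, 21.99 and 19.9 in cerebellum (log2 0.21 ± 0.17, edgeR adjusted p 0.304).

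Midbrain and hindbrain factors were the mirror image, with 6.34% of all genes higher in cerebellum by the 2-fold rule. Of 30 listed, 22 passed the filter on low values and 22 of these were higher in cerebellum by the 2-fold rule, with a median of -5.4. A gene silent in one tissue passes the filter only through the other, so this count describes the tested members alone, and the other 8, *Atoh1*, *En1*, *Gbx2*, *Lmx1a*, *Lmx1b*, *Pax5*, *Pax8* and *Ptf1a*, stayed at or below 4.20 CPM in every library. *En2*, the engrailed factor of the cerebellar primordium, was at 178, 230.5, 133, 176 and 116 CPM in cerebellum and 0.910, 1.21, 1.04, 0.700 and 2.98 in hippocampus. No hippocampus came near a cerebellum, and the log2 difference was -6.94 ± 0.37 (edgeR adjusted p for the 2-fold rule 6.77e-06). *Tfap2b*, expressed by inhibitory interneurons of the cerebellum, was at 61.9, 69.5, 96.0, 74.5 and 78.3 CPM against 0.114, 0.148, 0.124, 0.0583 and 0.113, a log2 difference of -9.27 ± 0.14 (edgeR adjusted p for the 2-fold rule 1.89e-08). *Skor2*, a corepressor of Purkinje cells, was at 14.4, 22.4, 26.0, 18.8 and 23.8 CPM in cerebellum and 0 in all 5 hippocampi, at least 120-fold apart. *Zic1*, a zinc finger factor of granule cell precursors, was at 702, 852, 585, 601 and 437 CPM against 4.15, 7.69, 7.50, 8.40 and 18.8, with the highest hippocampal value in animal Sample_1385, whose hippocampus also held choroid plexus transcripts. The part of these in the value was not tested.

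The NeuroD family of basic helix-loop-helix factors had a different leading member in each region. *Neurod6* was at 226, 216, 254, 244 and 231 CPM in hippocampus and 8.40, 8.71, 18.2, 11.2 and 9.92 in cerebellum (log2 4.42 ± 0.15, edgeR adjusted p for the 2-fold rule 9.49e-07). *Neurod1* was at 28.8, 29.4, 35.5, 35.3 and 34.4 CPM in hippocampus and 447, 623, 361, 456 and 306 in cerebellum (log2 -3.72 ± 0.19, edgeR adjusted p for the 2-fold rule 6.77e-06). The groups were apart for both genes, in opposite directions. *Neurod2* was closer, at 228, 197, 132, 185 and 183 CPM and 141, 163, 122, 153 and 98.0, with overlapping groups and a log2 difference of 0.44 ± 0.12 (edgeR adjusted p 0.0138). Per kilobase of gene model, *Neurod6* made up 60.0% ± 4.65 (SD, n = 5) of the family's reads in hippocampus and 2.51% ± 1.21 in cerebellum, where *Neurod1* made up 78.0% ± 2.36. *Neurod4* was not tested and stayed at or below 1.27 CPM outside the hippocampus of animal Sample_1385, where it was at 6.80.

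**Figure D2:**
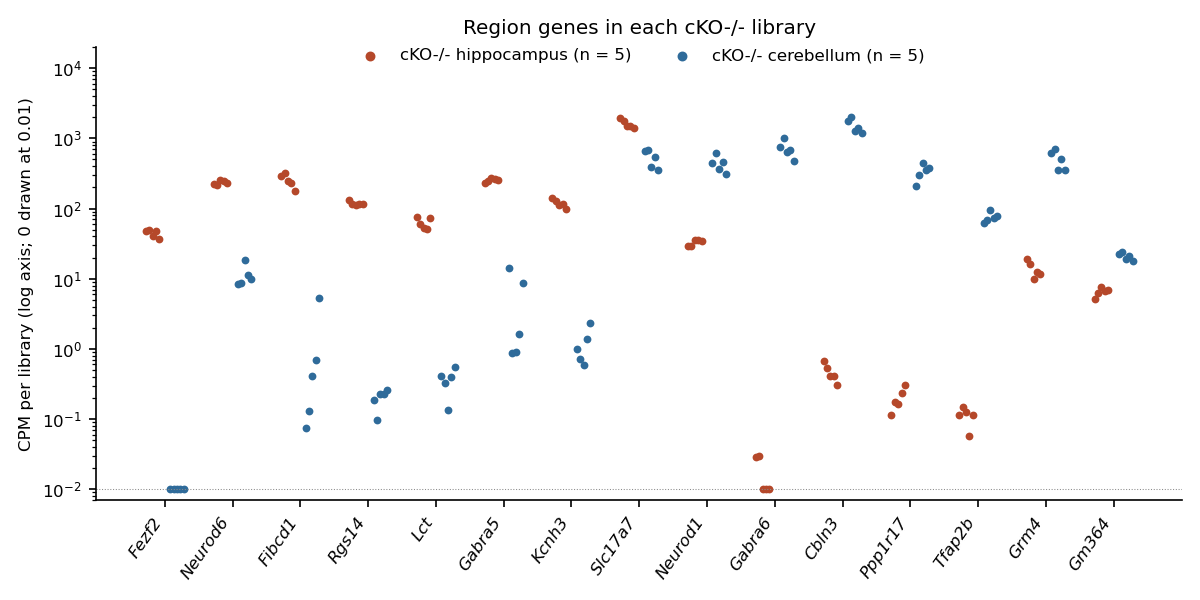
CPM of 15 region genes in each cKO-/- library on a log axis, 5 hippocampi and 5 cerebella a gene, with 0 drawn at 0.01. Hippocampal genes from *Fezf2* to *Slc17a7* and cerebellar genes from *Neurod1* to *Gm364* separate the tissues in all 5 animals, with the widest gaps for *Fezf2*, *Gabra6* and *Cbln3*.

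Genes of the hippocampal subfields were higher in hippocampus, with exceptions in CA2 and dentate gyrus. By the 2-fold rule 5 of 7 CA1 genes were higher (median 4.56), 3 of 5 CA2 genes (median 1.87), 5 of 5 CA3 genes (median 2.73) and 5 of 8 dentate granule cell genes (median 3.84). This compares with 8.48% of all genes. *Fibcd1*, an acetyl group receptor that marks CA1, was at 292, 319, 243, 231 and 175 CPM in hippocampus and 0.0737, 0.131, 0.406, 0.686 and 5.32 in cerebellum, lowest and highest respectively in animal Sample_1385. *Spink8*, also of CA1, was at 19.97, 18.1, 21.5, 19.8 and 22.2 CPM against 0.295, 0.164, 0.225, 0.0980 and 0.131, a log2 difference of 6.79 ± 0.21 (edgeR adjusted p for the 2-fold rule 5.06e-07). *Rgs14*, a regulator of G-protein signalling that limits plasticity in CA2, was at 132, 117, 113, 117 and 117 CPM against 0.184, 0.0986, 0.225, 0.229 and 0.263. No cerebellum exceeded 0.263 CPM, and the log2 difference was 9.19 ± 0.15 (edgeR adjusted p for the 2-fold rule 2.78e-08). *Cacng5*, a transmembrane regulator of AMPA receptors listed for CA2, went the other way, at 11.6, 9.56, 9.57, 10.3 and 12.9 CPM in hippocampus and 61.0, 72.2, 87.3, 81.3 and 86.2 in cerebellum (log2 -2.85 ± 0.12, edgeR adjusted p for the 2-fold rule 5.34e-06).

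In CA3, *Iyd*, an iodotyrosine deiodinase, was at 6.94, 6.42, 9.03, 7.81 and 8.004 CPM against 0.442, 0.394, 0.225, 0.392 and 0.525, and *Cpne4*, a calcium-dependent phospholipid-binding copine, at 146, 145, 158, 158 and 152 against 10.2, 6.54, 12.7, 9.74 and 16.1. Both groups were apart, with log2 differences of 4.23 ± 0.22 and 3.82 ± 0.17 (edgeR adjusted p for the 2-fold rule 7.22e-06 and 3.56e-06). In the dentate gyrus *Lct*, which encodes lactase, was at 75.6, 60.6, 52.3, 51.0 and 73.9 CPM in hippocampus and 0.405, 0.329, 0.135, 0.392 and 0.558 in cerebellum (log2 7.38 ± 0.17, edgeR adjusted p for the 2-fold rule 1.1e-07). *Dsp*, the desmosomal protein desmoplakin, was at 76.0, 58.4, 51.2, 51.1 and 69.0 CPM against 3.50, 0.164, 0.766, 0.555 and 0.558, highest among cerebella in animal Sample_936. *Prox1*, the factor that fixes dentate granule cell identity, was at 69.5, 60.8, 65.9, 63.9 and 72.8 CPM in hippocampus and 32.0, 44.1, 27.4, 20.9 and 20.4 in cerebellum, apart in every animal but not by more than 2-fold under the test (log2 1.25 ± 0.18, edgeR adjusted p 0.000555, and 0.193 for the 2-fold rule). *Plk5* and *Tdo2*, listed for the dentate gyrus, were higher in cerebellum, with log2 differences of -0.58 ± 0.14 and -0.80 ± 0.12 (edgeR adjusted p 0.00698 and 0.00067).

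Granule and Purkinje cell genes were higher in cerebellum throughout, where 6.34% of all genes were higher by the 2-fold rule. By the 2-fold rule 13 of 14 granule cell genes (median -4.12) and 14 of 14 Purkinje cell genes (median -4.95) were higher there, and *Tiam1*, an activator of Rac, was the granule cell gene that passed only the test without a fold (log2 -1.01 ± 0.14). *Gabra6*, the alpha 6 subunit of the GABA-A receptor, was at 743, 998, 628, 679.9 and 481 CPM in cerebellum, while 2 counts fell on it in all hippocampi together. The ratio was 48527 (95% Poisson interval 13434 to 400703, edgeR adjusted p for the 2-fold rule 8.83e-09). *Cbln3*, a cerebellin that granule cells secrete together with *Cbln1*, was at 1768, 2042, 1252, 1424 and 1184 CPM against 0.683, 0.533, 0.414, 0.408 and 0.302, a log2 difference of -11.67 ± 0.15 (edgeR adjusted p for the 2-fold rule 7.23e-09). *Fat2*, a large cadherin of parallel fibres, was at 1033, 1101, 580.4, 496 and 408 CPM against 0.370, 0.325, 0.124, 0.641 and 0.0755. Animal Sample_1219 had the highest and animal Sample_1385 the lowest cerebellar level of all 3 genes.

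Among Purkinje cell genes, *Ppp1r17*, an inhibitor of protein phosphatases, was at 209.5, 297, 438, 354 and 384 CPM in cerebellum and 0.114, 0.178, 0.166, 0.233 and 0.302 in hippocampus (log2 -10.71 ± 0.13, edgeR adjusted p for the 2-fold rule 7.23e-09). *Pcp2*, a modulator of G proteins, was at 215, 307, 408, 414 and 458 CPM against 0.569, 0.681, 0.497, 0.350 and 0.378, and *Calb1*, the calcium buffer calbindin, at 953, 1365, 2031, 1655 and 1872 against 143, 133, 143, 179.7 and 155. All 3 genes were lowest in the cerebellum of animal Sample_936 and apart from hippocampus in every animal. *Calb1* is also made by hippocampal neurons, and its log2 difference of -3.35 ± 0.17 was smaller than the -9.37 ± 0.24 of *Pcp2*. The summed level of the Purkinje cell genes ran from 10500 to 20600 CPM in cKO-/- cerebella and from 9620 to 14000 in controls, and that of granule cell genes from 4540 to 9010 and from 7850 to 8900.

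Of 10 tested genes of other cerebellar neurons, 6 were higher in cerebellum and 1 in hippocampus, against 6.34% and 8.48% of all genes. *Slc6a5*, the glycine transporter of Golgi cells and of brainstem neurons, was at 42.0, 17.6, 13.7, 7.09 and 9.56 CPM in cerebellum, highest in animal Sample_936, and at most 0.0378 in hippocampus. *Eomes*, a factor of unipolar brush cells in the adult cerebellum and of progenitors in the dentate gyrus, was at 30.5, 83.1, 23.0, 46.3 and 18.4 CPM against 1.05, 1.30, 1.33, 1.22 and 1.96, with a log2 difference of -4.70 ± 0.37 (edgeR adjusted p for the 2-fold rule 6.78e-05). *Grm2*, an autoreceptor for glutamate listed for Golgi cells, was higher in hippocampus, at 82.5, 63.5, 55.5, 68.2 and 65.7 CPM against 25.9, 31.5, 19.2, 24.8 and 21.8 (log2 1.44 ± 0.11, edgeR adjusted p for the 2-fold rule 0.00281).

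The largest differences in either direction over all genes at 10 CPM or more added genes that mark neither list. *Ddn*, dendrin, a protein of dendrites of forebrain neurons, was at 2388, 2189, 2023, 2302 and 2149 CPM in hippocampus and 0.0737, 0.394, 0.586, 1.05 and 4.89 in cerebellum, with the highest cerebellar value in animal Sample_1385 (log2 11.12 ± 0.76, edgeR adjusted p for the 2-fold rule 2e-05). *Crym*, a thyroid hormone binding protein, was at 258, 279, 295, 290.2 and 177 CPM against 0.184, 0.164, 0.180, 0.196 and 0.197, and *Cpne7*, another copine, at 367, 374, 394, 357 and 234 against 0.295, 0.0329, 0.225, 0.359 and 1.35. No library of one tissue reached the other. In cerebellum *Sycp1*, a protein of the meiotic synaptonemal complex, was at 23.4, 35.4, 58.0, 37.1 and 42.2 CPM, and *Smpx*, a small muscle protein, at 6.52, 10.5, 13.8, 12.02 and 11.8. Both were at 0 in all 5 hippocampi, so they were at least 224-fold and at least 62.5-fold higher in cerebellum. *Nrk*, a Nik-related kinase, and *Hes3*, a transcriptional repressor of the Notch pathway, were at 51.1, 73.7, 112, 69.5 and 89.5 and 51.5, 66.8, 92.0, 88.7 and 90.2 CPM in cerebellum and at most 0.0755 in hippocampus.

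GABA-A receptor subunits, which form the chloride channels of fast inhibition, differed in composition. Of 13 tested, 4 were higher in hippocampus and 3 in cerebellum by the 2-fold rule, against 8.48% and 6.34% of all genes. *Gabra5*, the alpha 5 subunit of extrasynaptic hippocampal receptors, was at 233, 244, 268, 265 and 257 CPM in hippocampus and 14.3, 0.887, 0.901, 1.63 and 8.80 in cerebellum, with animals Sample_936 and Sample_1385 above the other cerebella (log2 6.10 ± 0.67, edgeR adjusted p for the 2-fold rule 0.000379). Per kilobase, *Gabra5* made up 31.7% ± 1.75 (SD, n = 5) of the 6 alpha subunits in hippocampus and 0.373% ± 0.433 in cerebellum, and *Gabra6* made up 0.00175% ± 0.00239 and 49.3% ± 9.7. *Gabrd*, the delta subunit that pairs with alpha 6 in granule cells, was at 32.2, 23.6, 25.3, 25.4 and 28.0 CPM against 211, 266, 131, 186 and 127 (log2 -2.73 ± 0.18, edgeR adjusted p for the 2-fold rule 5.52e-05). *Gabrg3*, a gamma subunit, was higher in hippocampus at 3.13, 4.23, 4.39, 3.79 and 3.40 CPM against 0.847, 0.493, 0.766, 0.359 and 0.952. The tissues did not overlap for these subunits.

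Ionotropic glutamate receptor subunits divided likewise, with 5 of 18 higher in hippocampus and 4 in cerebellum, against 8.48% and 6.34% of all genes. *Grin2b*, the GluN2B subunit of NMDA receptors, was at 54.8, 100.5, 124, 121 and 116 CPM in hippocampus, lowest in animal Sample_936, and 7.48, 7.03, 7.84, 3.20 and 8.44 in cerebellum (log2 3.90 ± 0.29, edgeR adjusted p for the 2-fold rule 5.09e-05). *Grin2c*, the GluN2C subunit of mature granule cells, was at 76.8, 67.9, 54.0, 53.2 and 62.3 CPM against 358, 434, 301, 365 and 218 (log2 -2.40 ± 0.15, edgeR adjusted p for the 2-fold rule 4.77e-05). *Grin2c* made up 91.1% ± 2.18 (SD, n = 5) of the GluN2 reads per kilobase in cerebellum and 34.6% ± 7.47 in hippocampus, where *Grin2b* made up 36.4% ± 8.98. Among AMPA receptor subunits *Gria4* was at 73.4, 67.8, 81.5, 86.0 and 61.7 CPM in hippocampus and 554, 653, 873, 677 and 651 in cerebellum, 2.91% ± 0.308 and 32.3% ± 2.05 of the family, and *Gria2*, which makes the channel impermeable to calcium, took 33.8% ± 2.3 and 16.8% ± 1.4.

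**Figure D3:**
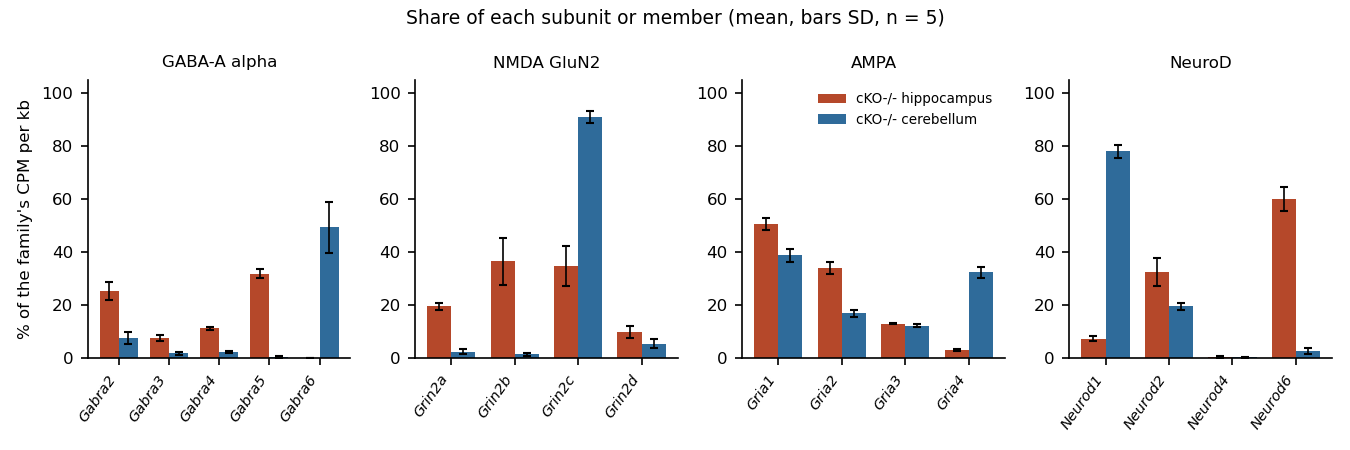
Share of the subunits or family members drawn in the reads per kilobase of their whole family, which for the GABA-A alpha subunits leaves 1 member undrawn, as mean and SD over 5 cKO-/- animals, for hippocampus and cerebellum. *Gabra5* at 31.7% gives way to *Gabra6* at 49.3%, *Grin2b* at 36.4% to *Grin2c* at 91.1%, and *Neurod6* at 60.0% to *Neurod1* at 78.0% from hippocampus to cerebellum.

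Metabotropic glutamate receptors were split 2 and 2 among 7 tested, against 8.48% and 6.34% of all genes. *Grm5*, coupled to phospholipase C in pyramidal neurons, was at 310.1, 376, 397, 409 and 349 CPM in hippocampus and 25.6, 19.3, 17.4, 18.2 and 45.2 in cerebellum, highest among cerebella in animal Sample_1385. *Grm4*, the presynaptic receptor of parallel fibres, was at 19.1, 16.01, 9.86, 12.4 and 11.8 CPM against 625.2, 694, 355, 501 and 352. The log2 differences were 3.96 ± 0.25 and -5.18 ± 0.11 (edgeR adjusted p for the 2-fold rule 2.07e-05 and 8.91e-08), and the tissues were apart for both.

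Voltage-gated potassium channels set firing and repolarisation. Of 25 tested, 9 were higher in hippocampus and 3 in cerebellum (median 0.75), against 8.48% and 6.34% of all genes. *Kcnh3*, a channel of the EAG family found in forebrain, was at 142, 127, 111, 117 and 98.8 CPM in hippocampus and 0.995, 0.723, 0.586, 1.405 and 2.36 in cerebellum (log2 6.61 ± 0.31, edgeR adjusted p for the 2-fold rule 3.45e-06). *Kcnq5*, an M-current subunit, was at 105.4, 114, 113, 109 and 85.6 CPM against 4.31, 4.47, 7.75, 4.15 and 10.6. *Kcnc1*, a channel of fast-spiking neurons, went the other way, at 233, 217, 183, 202 and 172 CPM against 808, 909, 561, 576 and 529. All 3 genes separated the tissues in every animal.

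Of 20 sodium, calcium and HCN channels tested, 4 were higher in hippocampus and 3 in cerebellum, against 8.48% and 6.34% of all genes. The median log2 difference of the list was -0.06. *Scn3b*, a sodium channel beta subunit, was at 392, 355, 323, 341 and 345 CPM in hippocampus and 7.59, 4.07, 4.55, 5.33 and 12.5 in cerebellum, and *Cacna1h*, a T-type calcium channel, at 252, 199, 146, 152 and 164 against 3.79, 2.73, 2.79, 3.50 and 8.70. *Scn4b*, the beta subunit of resurgent current in Purkinje cells, was at 26.5, 22.5, 15.8, 17.6 and 24.1 CPM against 229, 101, 156, 92.1 and 164, and *Cacna1g*, a second T-type channel, at 115, 103, 76.9, 89.2 and 66.7 against 408, 535, 638, 492 and 575. The log2 differences were 5.78 ± 0.25, 5.47 ± 0.30, -2.75 ± 0.17 and -2.57 ± 0.20 in this order, and no pair of groups overlapped (edgeR adjusted p for the 2-fold rule from 2.08e-06 to 0.00014).

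Synaptic organisers are proteins that link the 2 sides of a synapse. Of 17 tested, 5 were higher in hippocampus and 3 in cerebellum, against 8.48% and 6.34% of all genes. *C1ql2*, a complement-like protein of mossy fibres, was at 73.9, 55.4, 42.9, 55.3 and 68.9 CPM in hippocampus and 0.626, 0.789, 0.766, 0.621 and 1.94 in cerebellum, and *Lrrtm1*, a postsynaptic partner of neurexins, at 148, 155, 138, 131 and 119 against 10.9, 8.64, 7.93, 8.17 and 14.8. *Cbln1*, a secreted cerebellin that binds neurexins, was at 3.78, 2.40, 5.80, 9.21 and 3.36 CPM in hippocampus and 896, 910.0, 543, 753 and 503 in cerebellum. These 3 had log2 differences of 5.997 ± 0.24, 3.796 ± 0.18 and -7.30 ± 0.37 (edgeR adjusted p for the 2-fold rule 1.5e-06, 4.76e-06 and 4.56e-06).

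Of 12 transmitter transporters, 4 were higher in hippocampus and 5 in cerebellum, against 8.48% and 6.34% of all genes. *Slc17a7*, the vesicular transporter of most cortical and granule cell glutamate, was at 1936, 1763, 1479, 1508 and 1391 CPM in hippocampus and 659.8, 680.1, 394, 541 and 354 in cerebellum (log2 1.65 ± 0.11, edgeR adjusted p for the 2-fold rule 0.000443). *Slc17a6*, used by brainstem and deep nuclear neurons, was at 25.6, 24.6, 16.8, 23.7 and 22.05 CPM in hippocampus and 65.8, 12.5, 24.96, 16.6 and 117 in cerebellum, where animals Sample_936 and Sample_1385 lay above every hippocampus and animals Sample_1219 and Sample_1379 below every one. It was not called (log2 -0.59 ± 0.47, edgeR adjusted p 0.299). *Slc17a8*, the vesicular transporter of some interneurons and serotonergic cells, was at 6.12, 4.94, 5.72, 5.25 and 5.66 CPM against 0.258, 0.0986, 0.225, 0.0327 and 0.0657. *Slc1a1*, a neuronal glutamate carrier, was at 210.3, 209.6, 203, 215 and 194 CPM against 53.5, 39.8, 40.3, 42.7 and 54.7, and *Slc1a6*, the carrier of Purkinje cells, at 10.8, 11.5, 10.7, 10.4 and 9.36 against 263, 294, 382, 405 and 368. The tissues were apart for these 3 in all animals (log2 5.39 ± 0.34, 2.16 ± 0.10 and -5.01 ± 0.14).

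Neuropeptide precursors favoured hippocampus. By the 2-fold rule 8 of 13 were higher there and none in cerebellum, against 8.48% and 6.34% of all genes. They varied between animals, with a median SD of 1.0 in the log2 difference against 0.22 over all genes. *Vip*, vasoactive intestinal peptide of interneurons, was at 16.7, 14.2, 15.7, 20.5 and 13.7 CPM in hippocampus and 0.0368, 0, 0, 0.261 and 2.33 in cerebellum. *Pdyn*, prodynorphin of mossy fibres, was at 10.2, 7.28, 7.79, 8.28 and 10.6 CPM against 0.111, 0.296, 0.135, 0.0653 and 1.12. *Sst*, somatostatin, was at 169, 145, 137, 160.4 and 111 CPM against 7.74, 0.624, 0.496, 10.1 and 36.7. The cerebellum of animal Sample_1385 was the highest for all 3, and it also had 65.5 CPM of *Tcf7l2*, a thalamic and midbrain factor. The log2 differences were 5.67 ± 0.88, 4.92 ± 0.49 and 4.60 ± 0.86 (edgeR adjusted p for the 2-fold rule 0.00305, 0.00025 and 0.00949).

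Forebrain interneuron genes were divided, with 6 of 12 higher in hippocampus and 3 in cerebellum, against 8.48% and 6.34% of all genes. *Htr3a*, a serotonin-gated channel, was at 12.9, 11.6, 13.5, 13.8 and 7.44 CPM in hippocampus and 0.221, 0, 0, 0.0653 and 0.0657 in cerebellum, and *Lhx6*, a factor of medial ganglionic eminence interneurons, at 21.6, 20.1, 19.5, 22.5 and 14.8 against 0.663, 0.230, 0, 0.490 and 0.296. *Calb2*, calretinin, made by granule cells as well as by interneurons, was at 32.4, 29.0, 32.8, 32.9 and 23.7 CPM in hippocampus and 488, 783, 399, 559 and 381 in cerebellum, and *Reln*, the secreted glycoprotein reelin of granule cells and interneurons, at 65.3, 71.6, 78.4, 77.9 and 61.2 against 381, 411, 246, 204 and 192. These 4 genes did not overlap between tissues (log2 7.30 ± 0.46, 5.87 ± 0.39, -4.08 ± 0.17 and -1.96 ± 0.19). *Lamp5*, of neurogliaform cells, was at 58.9, 48.0, 49.2, 47.3 and 44.6 CPM in hippocampus and 47.2, 0.427, 0.360, 0.751 and 1.58 in cerebellum, where animal Sample_936 stood at the hippocampal level (edgeR adjusted p for the 2-fold rule 0.0189).

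Glia differed between the regions by type. Of 12 astrocyte and Bergmann glia genes 6 were higher in cerebellum and 1 in hippocampus, against 6.34% and 8.48% of all genes. *Gdf10*, a growth factor of Bergmann glia, was at 14.9, 14.8, 13.96, 13.6 and 14.2 CPM in hippocampus and 128, 149.6, 187, 219 and 179.5 in cerebellum (log2 -3.57 ± 0.14, edgeR adjusted p for the 2-fold rule 1.97e-06). *Slc1a2*, the main astrocytic glutamate carrier of the forebrain, was at 2886, 2788, 3180.2, 2942 and 3248 CPM against 1096, 955, 1194, 853 and 1111 (log2 1.53 ± 0.08, edgeR adjusted p for the 2-fold rule 0.000263). Both separated the tissues, in opposite directions. *A2m*, alpha 2 macroglobulin, was at 2.16, 6.84, 2.86, 4.37 and 42.1 CPM against 82.0, 72.4, 123, 108 and 90.2, with animal Sample_1385 as the highest hippocampus. Microglia genes, from cells that largely lack *Cre*, were higher in hippocampus, 5 of 10 by the 2-fold rule and 10 of 10 at an FDR of 0.05 (median 1.31). The shares of all genes higher there were 8.48% and 30.6%. *P2ry12*, a purinergic receptor, was at 29.9, 31.5, 47.3, 44.6 and 43.1 CPM in hippocampus and 13.8, 14.3, 16.04, 13.0 and 15.2 in cerebellum, and *Tmem119*, a microglial surface protein, at 25.9, 27.6, 24.6, 24.1 and 23.0 against 10.9, 8.31, 6.26, 8.20 and 11.7. The tissues did not overlap, with log2 differences of 1.41 ± 0.11 and 1.48 ± 0.14 (edgeR adjusted p for the 2-fold rule 0.00492 and 0.00848).

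None of 12 oligodendrocyte lineage genes (median 0.01) and none of 9 endothelial genes (median -0.39) passed the 2-fold rule, lists too short to set apart from the 8.48% and 6.34% of all genes that passed. At an FDR of 0.05, 5 oligodendrocyte lineage genes were higher in hippocampus and 3 in cerebellum, and 3 endothelial genes were higher in cerebellum. Over all genes 30.6% were higher in hippocampus and 32.3% in cerebellum. *Cspg4* and *Pdgfra*, of oligodendrocyte precursors, had the widest gaps of their list, with log2 differences of 1.13 ± 0.09 and 1.11 ± 0.12 (edgeR adjusted p 2.52e-05 and 0.000124), while *Mbp*, a structural protein of myelin, had -0.23 ± 0.11 (edgeR adjusted p 0.0913). Choroid plexus genes gave no call among 6 tested, with a median SD of 4.36 between animals. *Ttr*, transthyretin, named after its values were seen, was at 0.171, 1040.1, 5.72, 2.27 and 4572 CPM in hippocampus and 2768, 0.0329, 21.8, 42.9 and 8.34 in cerebellum. It was high in 2 hippocampi and 1 cerebellum and low elsewhere. Meningeal genes were higher in cerebellum for 3 of 8, and *Aldh1a2*, which makes retinoic acid, was at 3.50, 5.74, 5.63, 8.34 and 11.3 CPM against 21.3, 13.3, 27.8, 29.2 and 33.0, while *Slc6a13*, a GABA and taurine carrier, was at 5.43, 6.27, 6.75, 10.1 and 11.9 against 25.4, 15.5, 30.1, 32.5 and 31.7. Their log2 differences were -1.89 ± 0.20 and -1.76 ± 0.15 (edgeR adjusted p for the 2-fold rule 0.00208 and 0.00116).

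Genes of other regions were also examined, against 8.48% and 6.34% of all genes passing the 2-fold rule. Of 9 striatal and thalamic genes 2 were higher in hippocampus, *Drd1*, a dopamine receptor, at 4.61, 2.87, 4.85, 7.76 and 4.30 CPM against 0.147, 0.230, 0.180, 0.457 and 0.920, and *Rgs9*, a regulator of G-protein signalling, at 26.3, 25.1, 24.4, 22.8 and 27.7 against 5.23, 4.73, 4.51, 5.59 and 5.55. *Ppp1r1b*, the phosphatase inhibitor DARPP-32, was higher in cerebellum, at 40.6, 45.9, 28.3, 33.2 and 87.8 CPM against 145, 152, 194, 192 and 192. All 3 separated the tissues (log2 3.71 ± 0.39, 2.29 ± 0.09 and -2.00 ± 0.23). Of 12 midbrain and brainstem genes 5 were tested and *Th*, tyrosine hydroxylase, also made by some Purkinje cells, was higher in cerebellum, at 1.17, 0.740, 0.704, 0.408 and 0.793 CPM against 5.82, 1.45, 2.48, 9.87 and 4.50 (edgeR adjusted p for the 2-fold rule 0.0206). *Th* did not pass without animals Sample_936 and Sample_1385.

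Genes of adult neurogenesis were higher in hippocampus for 6 of 10 tested and in cerebellum for 2, *Eomes* and *Calb2*, which adult cerebellar neurons also make. The shares over all genes were 8.48% and 6.34%. *Igfbpl1*, of neuroblasts, was at 5.09, 5.98, 3.19, 4.84 and 6.80 CPM in hippocampus and 0.516, 0, 0, 0.131 and 0.230 in cerebellum. *Mki67*, of dividing cells, was at 4.67, 5.44, 5.67, 4.78 and 5.44 CPM against 1.25, 0.559, 1.22, 0.588 and 1.51, and *Dcx*, doublecortin of immature neurons, at 29.4, 26.7, 37.6, 38.1 and 28.9 against 8.18, 9.53, 8.74, 6.44 and 8.44. The groups did not overlap, with log2 differences of 4.99 ± 0.58, 2.40 ± 0.25 and 1.94 ± 0.15 (edgeR adjusted p for the 2-fold rule 0.000602, 0.00114 and 0.000351).

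Activity-regulated genes were higher in hippocampus for 9 of 15 by the 2-fold rule and for 14 at an FDR of 0.05, and 1, *Fos*, was higher in cerebellum. Of all genes 8.48% and 30.6% were higher in hippocampus by these 2 rules, and 6.34% and 32.3% in cerebellum. *Egr3*, an early growth response factor, was at 133, 136, 105.4, 131 and 115 CPM in hippocampus and 0.553, 0.690, 1.17, 1.18 and 4.33 in cerebellum, and *Egr2* at 1.28, 7.55, 4.60, 5.77 and 2.64 against 0.0368, 0.0657, 0.406, 0.196 and 0.197. *Arc*, which traffics AMPA receptors, was at 126, 244, 166, 174 and 127 CPM against 33.3, 26.1, 13.7, 18.9 and 22.5. The log2 differences were 6.44 ± 0.44, 4.57 ± 0.42 and 2.87 ± 0.23 (edgeR adjusted p for the 2-fold rule 2.32e-05, 0.000181 and 0.000147). *Fos* was at 11.6, 31.6, 24.4, 32.2 and 15.9 CPM in hippocampus and 39.1, 107, 114, 121 and 38.2 in cerebellum (log2 -1.80 ± 0.13, edgeR adjusted p for the 2-fold rule 0.000373). Animals Sample_936 and Sample_1385 had the lowest *Fos* in both tissues, and the tissues did not overlap. The same animals had the lowest cerebellar levels of *Nr4a2*, an orphan nuclear receptor, at 15.4, 64.5, 67.0, 66.5 and 18.7 CPM. These animals also had the highest brainstem sums, whose part in this was not tested.

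*Pogz* itself was at 63.4, 69.2, 62.3, 60.6 and 59.1 CPM in hippocampus and 58.7, 73.0, 66.6, 59.4 and 55.1 in cerebellum, and the tissues did not differ (log2 0.01 ± 0.06, edgeR adjusted p 0.948). In controls it was at 91.2 to 94.6 CPM in hippocampus and 87.5 to 126 in cerebellum, so that all cKO-/- libraries lay below all controls of their tissue. Counts per gene do not separate the deleted exons from the rest. Of 13 genes for *Pogz* and its heterochromatin partners, none passed the 2-fold rule (median 0.01), a list too short to set apart from the 8.48% and 6.34% of all genes that passed. At an FDR of 0.05, 2 were higher in hippocampus and 3 in cerebellum, against 30.6% and 32.3% of all genes. *Cbx5*, heterochromatin protein 1 alpha, was at 252, 273, 275, 258 and 258 CPM and 200.4, 230.1, 238, 181 and 207 (log2 0.32 ± 0.07, edgeR adjusted p 0.00406), and *Ehmt2*, a histone H3 lysine 9 methyltransferase, at 289.9, 269, 247, 242 and 218 and 125, 138, 122, 146 and 130.0 (log2 0.93 ± 0.09, edgeR adjusted p 5.89e-05).

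*Gm364*, whose promoter is shown above, was on in both cKO-/- regions and higher in cerebellum. It was at 5.18, 6.33, 7.66, 6.59 and 6.87 CPM in hippocampus and 22.2, 23.7, 19.4, 21.4 and 17.7 in cerebellum, apart in every animal (log2 -1.69 ± 0.13, edgeR adjusted p for the 2-fold rule 0.000779). All 12 control libraries were at or below 0.0347 CPM. *Dach2*, a transcriptional cofactor, was at 17.3, 18.5, 26.5, 23.3 and 22.5 CPM and 18.8, 24.4, 30.2, 17.5 and 28.7, and *Akr1c13*, an aldo-keto reductase, at 2.19, 2.10, 2.07, 1.69 and 3.13 and 3.50, 2.30, 3.06, 2.87 and 3.28. Neither differed between the tissues beyond the spread (log2 -0.14 ± 0.12 and -0.44 ± 0.17, edgeR adjusted p 0.329 and 0.0525). The study picked the 3 genes on these animals, by comparing the change with genotype in hippocampus with that in cerebellum, so their values here are no independent evidence.

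Whether the regional difference is as large without *Pogz* as with it was asked by setting the cKO-/- differences beside those of controls. Of the 2123 genes past the 2-fold rule in cKO-/-, 2120 had the same sign in controls, and 89.5% of all genes did. Across 14320 genes the least squares slope of the cKO-/- on the control difference was 0.8512 with a Pearson r of 0.949, a description across genes, which are not independent replicates. The SD of the differences across genes was 1.4 in cKO-/- and 1.56 in controls. Scatter between the 2 sets of differences also lowers a least squares slope, so the slope alone does not give the ratio of their sizes. The slopes of single cKO-/- animals on the control difference were 0.84, 0.984, 0.915, 0.89 and 0.754 in the usual order, lowest in the animals Sample_936 and Sample_1385 with the highest brainstem sums. The check animal Sample_1160 was at 0.986. This animal and Sample_1219, at 0.984, are the cKO-/- animals numbered between Sample_1120 and Sample_1219, as every control is. Whether brainstem transcripts, number range or genotype lies behind the slopes was not tested. Without these 2 animals the slope was 0.919, and without control animal Sample_1129 as well it was 0.897. Each control animal was set against the mean of the other controls, while cKO-/- animals were set against the mean of all controls, Sample_1129 included. The control slopes ran from 1 to 1.02, except for animal Sample_1129 at 0.877.

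**Figure D4:**
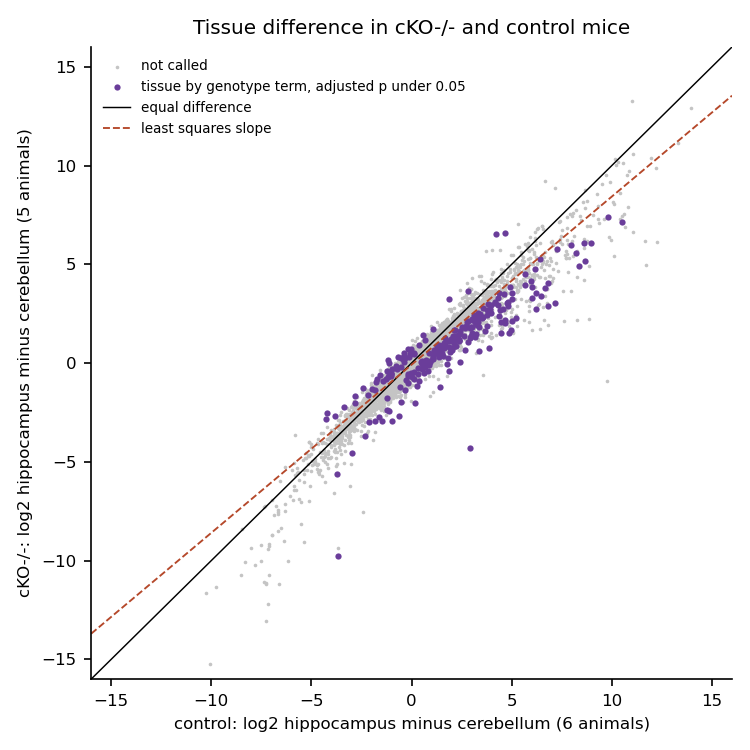
Log2 difference, hippocampus minus cerebellum, of each tested gene in 6 control animals (horizontal axis) and 5 cKO-/- animals (vertical axis), with the line of equal differences and the least squares line of slope 0.8512. Called genes of the tissue by genotype term, in colour, lie mostly on the hippocampal side below the line of equal differences.

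The tissue by genotype term of a joint edgeR fit tested each gene for a regional difference that departs from controls. Over 14750 genes 54 had a positive term (0.366%), meaning a hippocampus minus cerebellum difference larger in cKO-/- than in controls, and 203 a negative one (1.38%). Of these 257 genes, 211 had a smaller gap between the regions than in controls and 46 a larger one. In controls 192 of them were higher in hippocampus, and 173 of those had a smaller gap in cKO-/-. In 223 genes the mean level departed more from controls in cerebellum than in hippocampus. The sign of the regional difference was opposite in 37 genes, and in 209 no cKO-/- animal's difference fell within the range of the controls. The same shares over all genes tested were not taken, so these counts describe the called genes alone. The count moves more with the animals and the processing than the tissue comparison does. Without animals Sample_936 and Sample_1385 it was 76, and without control animal Sample_1129 as well it was 77. With single animals left out it was 559 without Sample_1219, 113 without Sample_1371, 149 without Sample_1379 and 129 without Sample_1385 among cKO-/- mice, and among controls 159 without Sample_1129, 120 without Sample_1155, 109 without Sample_1172 or without Sample_1190 and 145 without Sample_1192. Every control is numbered between Sample_1120 and Sample_1219, a range that holds only animal Sample_1219 of the 5 cKO-/- animals. With a tissue by number-range term the count was 0 by edgeR, with 391 genes at an unadjusted p under 0.05. The number range therefore cannot be told apart from genotype for these genes, and the labels do not say what it stands for.

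Members of the lists are read against that background of 0.366% and 1.38%. None of the tested forebrain or hindbrain transcription factors, granule cell or Purkinje cell genes was called by this term, of 20, 22, 14 and 14 members. These lists are too short to set that apart from the background. Some terms of cerebellar genes also had wide errors, such as -5.06 ± 3.25 for *Gabra6*. The hippocampus of control animal Sample_1129 held 49.8 CPM of *Gabra6*, against at most 1.13 in the other control hippocampi. Of 8 dentate granule cell genes 4 were called, *C1ql2*, *Dsp*, *Stxbp6* and *Pdyn*, all with a negative term. *C1ql2* differed by 6.00 between the regions in cKO-/- and by 7.98 in controls (term -1.98 ± 0.33, edgeR adjusted p 0.0132), with 0.272 to 0.651 CPM in control cerebella. *Stxbp6*, a syntaxin binding protein, was at 118, 106, 129, 127 and 148 CPM in cKO-/- hippocampus and 25.1, 13.6, 11.9, 13.5 and 35.9 in cerebellum, against 108 to 177 and 7.11 to 10.3 in controls (term -1.16 ± 0.25, edgeR adjusted p 0.0413). The cerebella of animals Sample_936 and Sample_1385 were the highest for it. *Wfs1* of CA1, a protein of the endoplasmic reticulum, was at 97.2, 98.3, 92.4, 118 and 90.2 CPM in cKO-/- hippocampus and 107 to 290.1 in control hippocampus, with 54.3, 50.1, 56.0, 62.2 and 63.5 and 39.0 to 55.1 in cerebellum, so that its smaller gap came mainly with lower hippocampal levels (term -1.22 ± 0.20, edgeR adjusted p 0.0141).

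Channels gave terms of both signs. Of 25 potassium channels 4 were called, *Kcnq5* and *Kcnc2* with a negative and *Kcnh3* and *Kcnd2* with a positive term. *Kcnh3* was at 0.995, 0.723, 0.586, 1.405 and 2.36 CPM in cKO-/- cerebellum and 4.21 to 7.10 in control cerebellum, with 142, 127, 111, 117 and 98.8 and 123 to 141 in hippocampus, a wider gap without *Pogz* (term 1.93 ± 0.34, edgeR adjusted p 0.0169). *Kcnd2*, an A-type channel of granule cells, was at 238, 312, 185, 195 and 159 CPM in cKO-/- cerebellum against 373 to 452 in controls (term 0.81 ± 0.16, edgeR adjusted p 0.0309). *Kcnc2*, of fast-spiking neurons, was at 21.9, 4.30, 8.38, 8.53 and 40.3 CPM in cKO-/- cerebellum, highest in animals Sample_936 and Sample_1385, against 0.623 to 2.48 in controls (term -3.06 ± 0.61, edgeR adjusted p 0.0298). *Scn3b*, *Scn4b* and *Hcn2*, of 20 sodium, calcium and HCN channels, had negative terms of -1.46 ± 0.25, -1.10 ± 0.23 and -0.70 ± 0.11. The negative terms rest on a smaller hippocampal lead for *Scn3b* and a larger cerebellar lead for *Scn4b*. In glia *Gfap*, the intermediate filament of astrocytes, was at 363, 219, 232, 287 and 323 CPM in cKO-/- cerebellum and 126 to 148 in control cerebellum, with 457, 461, 475, 413 and 577 and 360.0 to 437 in hippocampus (term -0.85 ± 0.13, edgeR adjusted p 0.0107). *Map3k15* of CA2, *Grm5*, *Lrrtm4* and *Tac1*, a tachykinin precursor, also had negative terms, of -1.89 ± 0.36, -1.70 ± 0.29, -1.10 ± 0.20 and -3.30 ± 0.75. *C1qb*, a complement component of microglia, had a term of -0.60 ± 0.12 (edgeR adjusted p 0.0314).

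Among all genes whose animals do not overlap between genotypes, those with the smallest adjusted p and a negative term were hippocampal genes with more RNA in cKO-/- cerebellum. *Npnt*, nephronectin of the extracellular matrix, was at 36.3, 32.5, 29.1, 31.2 and 42.0 CPM in cKO-/- hippocampus and 10.4, 9.53, 11.2, 10.7 and 13.7 in cerebellum, against 39.9 to 68.7 and 3.16 to 5.60 in controls (term -2.05 ± 0.15, edgeR adjusted p 9.7e-05). It changed in both tissues, lower in every cKO-/- hippocampus but one than in all controls and higher in every cKO-/- cerebellum. *Cpne4* was at 10.2, 6.54, 12.7, 9.74 and 16.1 CPM in cKO-/- cerebellum and 0.883 to 2.60 in control cerebellum, while its hippocampal levels of 145 to 158 lay within the control range of 121 to 178 (term -2.82 ± 0.27, edgeR adjusted p 0.00115). *Ccbe1*, a secreted factor of lymphatic growth, was at 3.57, 1.64, 2.12, 1.96 and 2.33 CPM against 0.346 to 1.19 in cerebellum, and *Chsy3*, a chondroitin sulfate synthase, at 1.92, 1.31, 2.12, 1.18 and 2.82 against 0.110 to 0.381. All 5 cKO-/- cerebella lay above all 6 controls for these 3 genes, animals Sample_1219, Sample_1371 and Sample_1379 included. The same held for *A730017C20Rik*, *Pmepa1* and *Epha5*, an ephrin receptor, with terms of -1.59 ± 0.16, -0.79 ± 0.10 and -1.20 ± 0.15. *Tmem196* crossed over, at 15.6, 15.98, 21.0, 18.8 and 18.7 CPM in cKO-/- hippocampus and 24.4, 19.3, 28.2, 17.6 and 29.1 in cerebellum against 7.61 to 11.8 and 4.65 to 6.48 in controls (term -1.21 ± 0.14, edgeR adjusted p 0.00396).

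The named genes with a positive term had lower means in cKO-/- than in control cerebellum. *Myo15*, an unconventional myosin of hair cell stereocilia, was at 0.221, 0.559, 0.721, 0.229 and 0.164 CPM in cKO-/- cerebellum and 5.12 to 16.6 in control cerebellum, with 0.370, 0.207, 0.373, 0.292 and 0.340 and 0.259 to 1.01 in hippocampus (term 4.14 ± 0.43, edgeR adjusted p 0.00115). It was below the filter in the cKO-/- libraries alone and entered only through the controls. *Mamstr*, a coactivator of MEF2 factors, was at 1.58, 1.18, 1.35, 1.70 and 1.12 CPM against 3.09 to 4.76 in cerebellum, and the cKO-/- regions no longer differed (log2 0.15 ± 0.18, edgeR adjusted p 0.485). *Hrk*, a pro-apoptotic protein, was at 6.19, 5.72, 8.34, 6.99 and 6.90 CPM in cKO-/- and up to 12.5 in control cerebellum, where the lowest control lay below the highest cKO-/- value, and *Onecut2*, a transcription factor, at 1.81, 1.28, 0.856, 0.915 and 0.854 against 2.94 to 4.90. All cKO-/- cerebella lay below all controls for *Myo15*, *Mamstr* and *Onecut2*. *Rnf123*, *Enox2* and *C77080* had smaller terms, of 0.47 ± 0.07, 0.65 ± 0.10 and 0.91 ± 0.15.

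**Figure D5:**
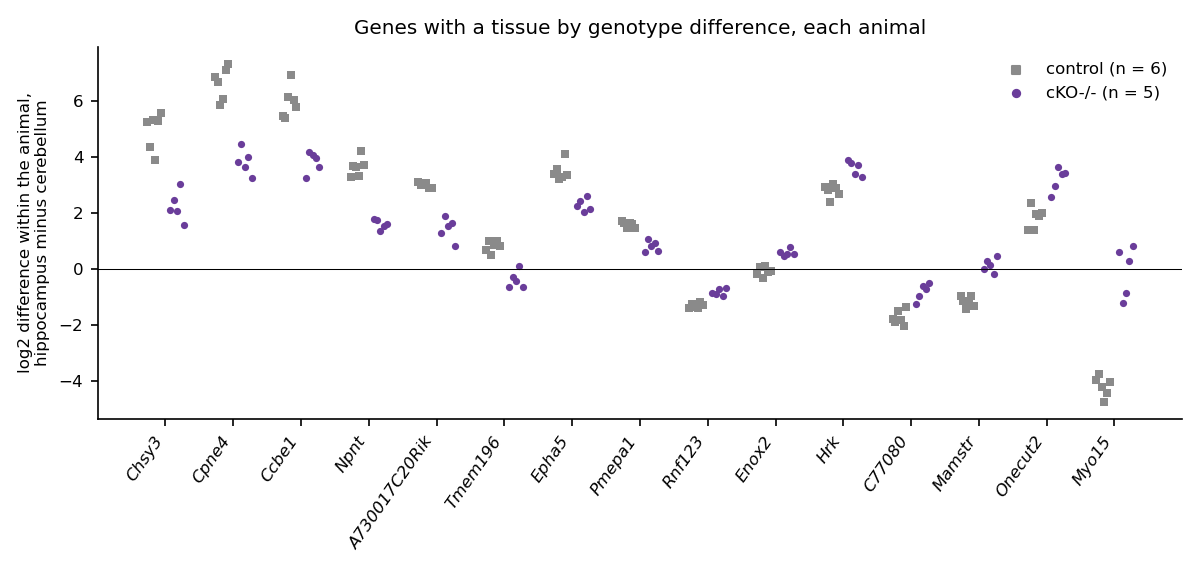
Log2 difference within each animal, hippocampus minus cerebellum, for the 15 genes named by the tissue by genotype term, in 6 control and 5 cKO-/- animals, ordered from *Chsy3* with the most negative term to *Myo15* with the most positive. The 2 groups of animals do not overlap for any of these genes, which is part of how they were chosen.

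A pair of genes chosen after their values were seen were high in cKO-/- cerebellum and much lower in cKO-/- hippocampus and control cerebellum. *Ostn*, osteocrin, a secreted peptide, was at 18.5, 10.2, 24.6, 17.4 and 12.7 CPM in cKO-/- cerebellum, at most 0.0414 in cKO-/- hippocampus and 0.139 to 0.712 in control cerebellum (term -6.10 ± 0.91, edgeR adjusted p 0.00879). *Gm13544* was at 10.2, 15.6, 9.78, 9.08 and 12.1 CPM in cKO-/- cerebellum and 0.512, 0.651, 0.456, 0.641 and 0.642 in hippocampus, and at 0 in all 6 control cerebella. For both genes every cKO-/- cerebellum lay above every other library.

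Sex was compared within the cKO-/- animals. In males against females no gene of 14320 had a different regional gap by edgeR's quasi-likelihood test (lowest adjusted p 0.395), with 1626 at an unadjusted p under 0.05 and 109 called by DESeq2, over 3 males and 2 females. Animal Sample_1160, left out above, had the sign of the other 5 animals in 2017 of the 2123 genes past the 2-fold rule, but its difference lay outside their range in 1403 of them (66.1%).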

How the data were processed

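Poly(A) RNA of adult mouse hippocampus and cerebellum was sequenced as paired-end reads. The authors aligned and counted reads per gene with STAR (version 250a per the labels), and the deposited values are whole-number counts, with no normalization and replicates not pooled. The build is named as mm9, while the gene coordinates in the deposited tables match GRCm38, and strand and multiple mapping are not given in the sources used here. Across these files 27 symbols had been read as dates and 2 were duplicated, and such genes are not named here.

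Counts on genes ranged from 17609321 to 36449872 in the 5 cKO-/- hippocampi and from 21421850 to 30812192 in the 5 cerebella. The filter asked for more than 1 CPM in 5 libraries or more, and counts were scaled by TMM and tested with edgeR 4.0.16 in R 4.3.3 (quasi-likelihood F-test, 2-sided, Benjamini-Hochberg FDR 0.05) with the animal as a block. The 2-fold rule is edgeR's glmTreat on the same fit. Standard errors are the absolute log2 difference over the square root of F. The tissue by genotype term used 5 cKO-/- and 6 control animals, and the tissue by sex term 3 males and 2 females. Ratios on few counts carry 95% exact Poisson intervals and those on 0 counts use a floor of 3 counts per library, and both cover counting error only. Pairing comes from the animal number, since each animal gave both tissues. Deviations of the 2 libraries of an animal from their tissue means correlated with a median r of 0.116 (-0.174 to 0.289, 3 of 5 over 0.1) across 14320 genes, against -0.0644 between different animals.

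Genes named in the text are the 2 highest members of each list in either direction by the 2-fold rule, the 8 largest differences in either direction among genes at 10 CPM or more, the 8 smallest adjusted p-values of either sign of the genotype term among genes whose animals do not overlap, *Pogz*, the genes the study names, the NeuroD family and markers of other tissue. Further list members are named where a count singles them out, after their values were seen. The members and the gene lists were chosen with earlier results of these data known. Alternatives were DESeq2 1.42.0, other scalings, no filter, no block, a bias-adjusted fit, thinned counts, all 6 animals, left-out animals, cKO+/- animals in the fit and a number-range term. On simulated data the tissue test called 100 of 100 genes changed by log2 2 and 15 unchanged genes, and the genotype term 100 of 100 and 7. Each simulation changed only 200 genes, gave all genes the same dispersion and held no neighbouring tissue, while 62.9% of genes differed between the regions in the data. These counts check the code and do not measure power or error in the data. Promoters are from RefSeq. Results on some genes that these rules would name are not reported here.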

Additional observations from a re-analysis of the deposited data

Results flagged for a closer look

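Of 139 sets of per-animal values, 12 had an animal far from the rest, and chance gives about 1 in 20. For the named genes, the hippocampus minus cerebellum log2 difference of animal Sample_1371 stood apart for *Iyd* (4.97, next 4.11) and *Ppp1r17* (-10.9, next -10.3). That of animal Sample_1379 stood apart for *Rgs9* (2.02, next 2.31) and *Fat2* (-9.46, next -11.2), and that of animal Sample_1385 for *Crym* (9.41, next 10). Each of these differences kept the direction of the other 4 animals.

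Summed marker levels set single libraries apart. Choroid plexus genes summed to 5170 CPM in the hippocampus of cKO-/- animal Sample_1385 and to 3040 in the cerebellum of animal Sample_936 (next 75.3). Control hippocampi reached 5020 CPM in animal Sample_1129 and 2500 in animal Sample_1170, and were not set apart. Striatal and thalamic genes summed to 159 CPM in the hippocampus of animal Sample_1385 (next 106) and to 174 in that of control animal Sample_1129 (next 134). The hippocampus of control Sample_1129 also had a cerebellar granule cell sum of 873 CPM (next 573), and the slope of that animal's regional difference on the mean of the other controls was 0.877 (next 1). Meningeal genes summed to 357 CPM in the cerebellum of cKO-/- animal Sample_1219, the lowest of its group (next 527). The part of these transcripts in the regional differences was not tested beyond the values given without the animals.

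The regional difference departed between cKO-/- and control animals for 257 genes by the tissue by genotype term of edgeR. Among the named genes the term was negative for *Chsy3* (-2.96), *Cpne4* (-2.82), *Ccbe1* (-2.19), *Npnt* (-2.05), *A730017C20Rik* (-1.59), *Tmem196* (-1.21), *Epha5* (-1.2) and *Pmepa1* (-0.793). It was positive for *Myo15* (4.14), *Onecut2* (1.38), *Mamstr* (1.35), *C77080* (0.913), *Hrk* (0.831), *Enox2* (0.65) and *Rnf123* (0.472). Genotype cannot be told apart from the range of animal numbers for these genes.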

How the results depend on the processing

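The 9011 genes that differed between the regions ranged from 6620 with all 6 cKO-/- animals to 9757 without a filter, and the 2123 past the 2-fold rule from 1824 with DESeq2 to 2471 without a filter. Leaving out single animals gave 7823 to 8689 and 1944 to 2219. Dropping the replicate block gave 8986 and 2109. The 257 genes of the tissue by genotype term were less stable, with 731 by DESeq2, 434 with no replicate block, 70 with all 6 cKO-/- animals, 76 without animals Sample_936 and Sample_1385, 77 without control Sample_1129 as well, 0 with a number-range term (391 at an unadjusted p under 0.05) and 109 to 559 with single animals left out, the latter without Sample_1219. Other scalings, no filter, thinned counts, a bias-adjusted fit and cKO+/- animals in the fit gave 232 to 337. The tissue by sex term gave 0 genes, and 109 by DESeq2. The slope of 0.8512 was 0.762 without a filter, 0.919 without animals Sample_936 and Sample_1385, and 0.824 to 0.885 with single animals left out.

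No named gene reversed its direction under the alternatives run. With all 6 cKO-/- animals *Grm2*, *Slc1a2*, *Slc6a13*, *Th* and *Grin2a* no longer passed the 2-fold rule, and *Th* did not without animals Sample_936 and Sample_1385. The genotype terms of all 15 genes named by it were lost with the number-range term, those of *Rnf123*, *Enox2*, *Onecut2*, *Hrk* and *Pmepa1* with all 6 animals, that of *Rnf123* without animals Sample_936 and Sample_1385, and that of *Enox2* when control Sample_1129 was also left out. The cause was not tested. The bounds on genes at 0 counts are set by depth.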

Other observations

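Several genes outside the lists, chosen after their values were seen, had 4 counts or fewer over the 5 libraries of the other region in cKO-/- mice. *Tlx3*, a homeobox factor of hindbrain neurons, averaged 12.2 CPM in cerebellum with 1 count in all 5 hippocampi, a ratio of 1709 (95% Poisson interval 307 to 67491). *Lbx1*, a homeobox factor of hindbrain and spinal interneurons, averaged 5.57 CPM in cerebellum and was at 0 in all 5 hippocampi, at least 31.8-fold apart. *Crtam*, a cell adhesion molecule known from T cells, averaged 73.3 CPM in cerebellum with 4 counts in hippocampus, a ratio of 2527 (987 to 9275). *Aqp6*, an aquaporin, averaged 19.1 CPM in cerebellum with 4 counts in hippocampus, a ratio of 657 (257 to 2411). In the other direction *Krt2*, a keratin, averaged 7.09 CPM in hippocampus and was at 0 in all 5 cerebella, at least 52.5-fold apart, and *Sp9*, a zinc finger factor of forebrain interneurons, averaged 4.93 CPM in hippocampus and was at 0 in cerebellum, at least 36.5-fold apart.

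Sums over marker lists placed the cKO-/- libraries beside the controls. Dentate granule cell genes summed to 394 to 494 CPM in cKO-/- hippocampus and 455 to 854 in control hippocampus. Microglia genes summed to 179 to 257 CPM in cKO-/- cerebellum and 148 to 158 in control cerebellum, and meningeal genes to 357 to 563 and 214 to 297. Oligodendrocyte lineage genes summed to 5590 to 9640 CPM in cKO-/- cerebellum and 4030 to 5920 in control cerebellum. The cerebellum of cKO-/- animal Sample_1160, which these ranges leave out, had 143 CPM of microglia genes, below every control, and 291 of meningeal and 4380 of oligodendrocyte lineage genes, both within the control range. Its hippocampus had 354 CPM of dentate granule cell genes. These sums were not tested between genotypes.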
